A study of Homo sapiens with 2 samples.

Results

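The proteasome genes were the 48 genes whose array name was PSMA, PSMB, PSMC, PSMD, PSME, PSMF or PSMG followed by a number. They were read by 64 of the 34127 gene probes on each array. The cells were RMG1, a line established from an ovarian cancer. They had been sorted with ALDEFLUOR, a fluorescent substrate that marks cells with high activity of aldehyde dehydrogenase (ALDH). ALDH+ cells (ALDEFLUOR high) were compared with ALDH- cells (ALDEFLUOR low) of the same line, and neither group carried a gene change or received a drug. RNA from 1 sort of each population was hybridized to 2 two-color arrays, with ALDH+ cells in Cy5 and ALDH- cells in Cy3 on one array and with the dyes exchanged on the other. Both arrays carried the same pair of extracts, so they were counted as 1 replicate, no test was possible, and a single line stood for the disease. Every log2 ratio below is of ALDH+ over ALDH- cells, a positive value means a higher level in ALDH+ cells, and the SD given with a mean is that of the 2 arrays only (n = 2 arrays, 1 sort).

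The proteasome is the large protease that degrades proteins tagged with ubiquitin. Its core particle is a barrel of stacked alpha and beta rings whose beta subunits PSMB5, PSMB6 and PSMB7 cut the substrate. A regulatory particle of ATPases and non-ATPase subunits caps the barrel, recognizes ubiquitin, unfolds the substrate and feeds it in. Interferons and inflammatory signals induce PSMB8, PSMB9 and PSMB10, which take the places of PSMB5, PSMB6 and PSMB7 in newly built immunoproteasomes and favor peptides that fit HLA class I molecules. Other caps (PSME genes), an inhibitor (PSMF1) and dedicated assembly chaperones complete the family.

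The largest ratios of the family were those of catalytic subunits, so the probes that read them are shown first. Each probe had 60 bases, printed here as the array design gives it, with its hg19 position. PSMB8 lay on the minus strand at chr6:32810023-32810490, and its span of 468 bases in the genome shows that the probe crosses an exon junction. PSMB9 lay on the plus strand at chr6:32823918-32823977. PSMB5 lay on the minus strand at chr14:23495485-23495544, PSMB6 on the plus strand at chr17:4701404-4701589 (186 bases, also across a junction), and PSMB7 on the minus strand at chr9:127115891-127115950. The probe of PSMB10, on the minus strand at chr16:67968412-67968471, had a stop codon in every reading frame and is not printed, whereas each printed probe had at least 1 frame free of stop codons. No stretch is in capitals because the whole probe is the site of measurement.
PSMB8: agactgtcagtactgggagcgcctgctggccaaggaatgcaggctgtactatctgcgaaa
PSMB9: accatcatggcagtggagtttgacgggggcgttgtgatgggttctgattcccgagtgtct
PSMB5: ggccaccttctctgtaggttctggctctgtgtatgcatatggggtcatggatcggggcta
PSMB6: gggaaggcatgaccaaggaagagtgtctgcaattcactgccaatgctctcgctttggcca
PSMB7: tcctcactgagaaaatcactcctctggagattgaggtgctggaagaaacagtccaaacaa

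Most of the proteasome stood within a narrow band of equal levels in ALDH+ and ALDH- cells, and the immunoproteasome subunits PSMB8 and PSMB9 stood above it. Of the 48 genes, 46 had a probe well above the local background in both populations on both arrays. PSMA8, an alpha subunit known from the testis, and PSMB11, the thymus-specific beta subunit, were not well above background in any channel. Of the 46 measured genes, 41 had a mean ratio within 1.25-fold of equality in either direction, a share of 89.1%, against 77.6% of all 13718 measured genes. The 5 others were PSMB8, PSMB9 and PSME1 on the higher side and PSMB1 and PSMD1 on the lower side. PSMB8 was the only member past 1.5-fold higher (1 of 46, with 1.51% of all measured genes called), and no member was past 1.5-fold lower (4.59% of all measured genes called). No member passed 2-fold in either direction, where 0.211% of all measured genes were called higher and 0.707% lower. The median absolute log2 ratio was 0.11 over the members and 0.16 over all measured genes. These comparisons are after loess and with genes of any brightness, whereas the members were brighter (median signal of 3903 against 435). Genes of similar brightness were not set beside them. In bulk RNA, fewer cells that express a gene and less of its RNA per cell cannot be told apart, and this holds for every ratio given here.

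**Figure D1:**
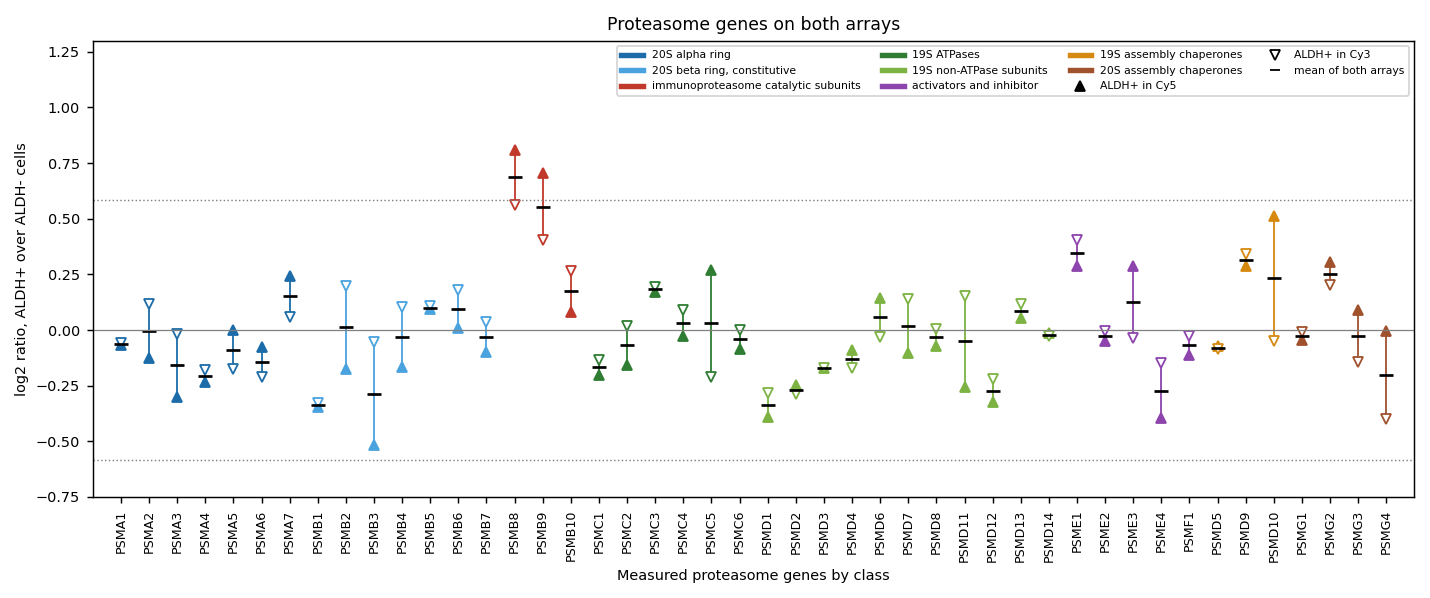
Log2 ratio of ALDH+ over ALDH- cells (y axis) for each of the 46 measured proteasome genes (x axis), colored by class. Filled triangles are from the array that had ALDH+ cells in Cy5, open triangles from the dye exchange, short black bars the mean of both, and dotted lines mark 1.5-fold. PSMB8 and PSMB9 are above 0.40 on both arrays, and no other member is.

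Differences this small must be read against the disagreement between the arrays. The SD of the 2 arrays had a median of 0.088 over the members (0.11 over all measured genes) and reached 0.40 for PSMD10. Across the 46 members the ratios of both arrays correlated with r = 0.60, and with r = 0.41 over the 43 members left without PSMB8, PSMB9 and PSMB10. This is a description across genes that share both extracts. Of the 46 members, 11 were higher on both arrays (33.7% of all measured genes were), 20 were lower on both (36.1% of all measured genes were), and 15 had opposite signs. After median centring of each array in place of loess, 1 member was higher and 0 were lower on both arrays. The share of all measured genes was not counted in that setting, but their medians also had opposite signs on the arrays (0.56 and -0.43). The medians of the members lay further apart (1.02 and -0.56). Whether the loss of members with the same sign is particular to the proteasome was not tested. The probes of PSMD6 and PSMD7, both non-ATPase subunits of the regulatory particle, were each printed in 10 spots. For PSMD6 the spots gave a log2 ratio of 0.14 ± 0.039 (SD over 10 spots) with ALDH+ cells in Cy5 and of -0.030 ± 0.067 with the dyes exchanged. For PSMD7 they gave -0.10 ± 0.044 and 0.14 ± 0.039, in the opposite order. For both subunits the sign of the mean differed between the arrays, by more than the SD over the spots, although the spots of PSMD6 overlapped between the arrays.

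The scaling of the arrays moved the constitutive members. Their probes were bright, with a median signal of 3903 over the members against 435 over all measured genes, and loess corrects the dyes along brightness where median centring does not. After loess the median log2 ratio of the 46 members was -0.030 (-0.069 and -0.012 on the arrays). After median centring it was 0.21, from 1.02 on one array and -0.56 on the other, against 0.073 for all measured genes (0.56 and -0.43). Under loess 28 of the 46 members had a mean below 0, as had 6911 of all 13718 measured genes. Under median centring 5 members had, and all measured genes were not counted in that setting. The members without PSMB8, PSMB9 and PSMB10 had a median of -0.032 in the one case and 0.18 in the other, so no common direction could be given for them, and the directions of single members below are those after loess. Within 1.25-fold under median centring were 35 of 46 members (76.1%), against 72.5% of all measured genes. PSMB8 stayed between 0.65 and 0.79 and PSMB9 between 0.51 and 0.73 over all settings that used both arrays.

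The immunoproteasome subunits were higher in ALDH+ cells on both arrays after loess, all 3 of 3 (33.7% of all measured genes were), with a median log2 ratio of 0.55. Under median centring PSMB8 was higher on both arrays (1.56 and 0.019), PSMB9 had 1.28 and -0.046, and PSMB10 had 1.07 and -0.29. PSMB8, the inducible counterpart of PSMB5, had normalized signals of 1146 in ALDH+ and 654 in ALDH- cells with ALDH+ cells in Cy5, and of 973 and 658 with the dyes exchanged. Its log2 ratios were 0.81 and 0.56, with a mean of 0.69 ± 0.17, or 1.61-fold higher. Both ALDH+ signals were above both ALDH- signals, and PSMB8 ranked 120 from the highest among the 13718 measured genes. PSMB9, the counterpart of PSMB6, had signals of 521 in ALDH+ and 320 in ALDH- cells on the first array and of 440 and 332 on the other. These gave log2 ratios of 0.70 and 0.41, a mean of 0.55 ± 0.21 (1.47-fold) and rank 235. Here too the populations did not overlap, but the size rested on the array. Taken alone, the first array had 2 members past 1.5-fold higher (PSMB8 and PSMB9, with 2.1% of all measured genes called), and the other had 0 (1.8% called).

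PSMB10, the counterpart of PSMB7, had a smaller ratio than PSMB8 and PSMB9. It had signals of 4193 in ALDH+ and 3963 in ALDH- cells on the first array and of 4440 and 3693 on the other. Its log2 ratios of 0.082 and 0.27 averaged 0.17 ± 0.13, or 1.13-fold. The ALDH+ signals were above the ALDH- signals, by a margin near the SD of the arrays.

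The constitutive catalytic subunits were near equal in both populations after loess, whereas under median centring their means were 0.37 (PSMB5), 0.35 (PSMB6) and 0.29 (PSMB7). PSMB5, which carries the chymotrypsin-like activity, had signals of 7505 in ALDH+ and 7032 in ALDH- cells, and of 7441 and 6913 after the dye exchange, with a mean log2 ratio of 0.10 ± 0.0085. PSMB6, the caspase-like subunit, had signals of 5915 against 5872 and of 6120 against 5402, with a mean of 0.095 ± 0.12. PSMB7, the trypsin-like subunit, had 11099 against 11890 and 11135 against 10866, with log2 ratios of -0.099 and 0.035 and a mean of -0.032 ± 0.095. PSMB5 and PSMB6 were thus slightly higher on both arrays, and PSMB7 changed sign between them.

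Set against the subunit it replaces, each inducible subunit had the larger ratio on both arrays after loess. PSMB8 minus PSMB5 was 0.71 with ALDH+ cells in Cy5 and 0.46 in Cy3, a mean log2 difference of 0.59 ± 0.18. PSMB9 minus PSMB6 was 0.69 and 0.23, with a mean of 0.46 ± 0.33. PSMB10 minus PSMB7 was 0.18 and 0.23, with a mean of 0.21 ± 0.035. Under median centring the mean differences were 0.42, 0.27 and 0.10, and PSMB10 was below PSMB7 on the array that carried ALDH+ cells in Cy5 (1.07 against 1.09). These differences compare changes, not levels, since different probes cannot be set against each other for level.

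**Figure D2:**
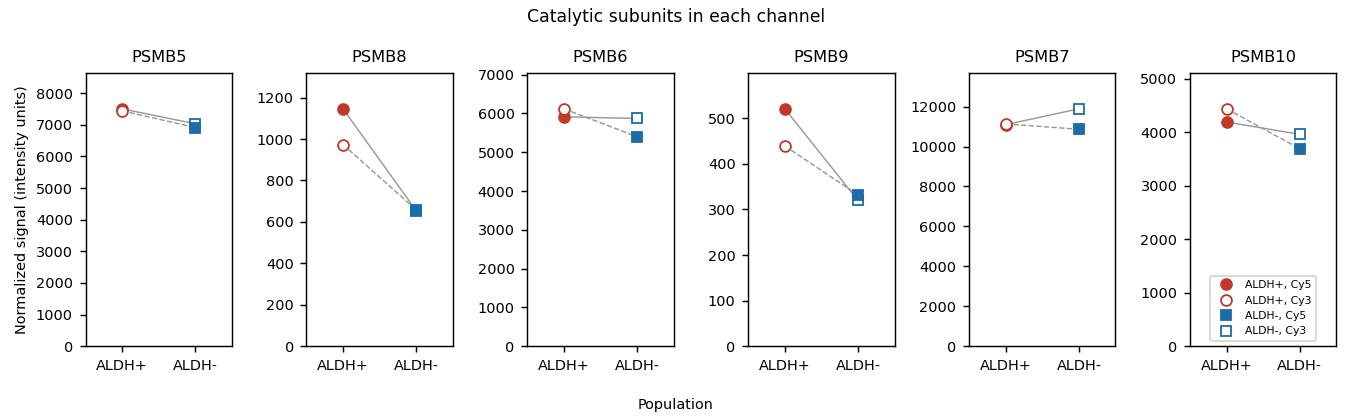
Normalized signal in intensity units (y axis, starting at 0, its own scale in each panel) of the 6 catalytic subunits in ALDH+ cells (red circles) and ALDH- cells (blue squares). Filled symbols are Cy5, open symbols Cy3, and each line joins the channels of 1 array, so levels are to be compared within a panel only. Both lines fall from ALDH+ to ALDH- cells for PSMB8 and PSMB9, and they are nearly flat for PSMB5, PSMB6 and PSMB7.

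PSMB8 and PSMB9 are neighbors in the HLA class II region of chromosome 6, where the peptide transporter genes TAP1 and TAP2 lie between and beside them. On hg19 the probe of PSMB8 lay 13.69 kb and that of TAP1 10.71 kb from the PSMB9 probe on the side of lower coordinates, and the TAP2 probe lay 30.7 kb away on the same side. TAP1 had log2 ratios of 0.77 and 0.49 with a mean of 0.63 ± 0.20, and TAP2 of 0.38 and 0.26 with a mean of 0.32 ± 0.088. All 4 genes of this cluster were therefore higher in ALDH+ cells on both arrays after loess, while under median centring TAP1 and TAP2 had -0.081 and -0.15 on the array that carried ALDH+ cells in Cy3. Of the other measured genes within 100 kb, HLA-DMB, which helps to load class II molecules, had log2 ratios of -0.76 and -0.60 with a mean of -0.68, and HLA-DMA had 0.00072 and 0.073.

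**Figure D3:**
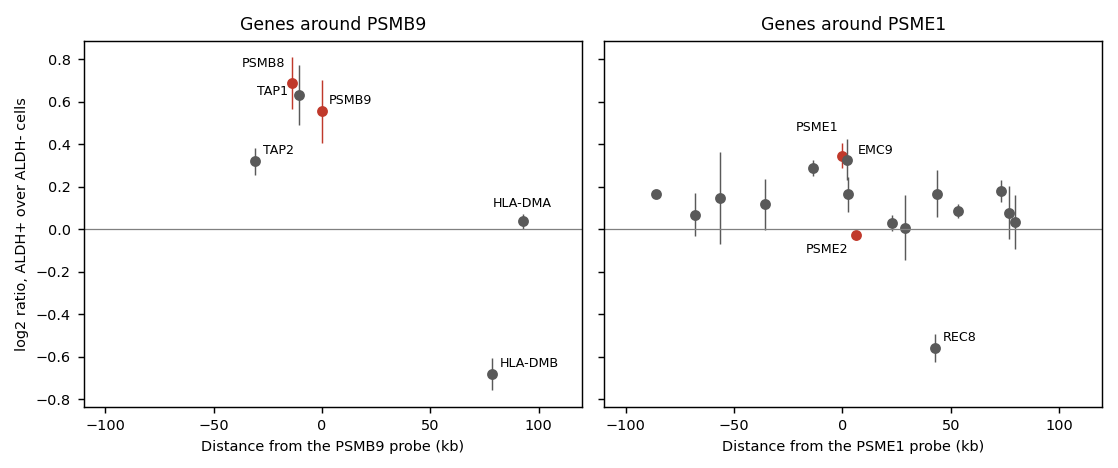
Log2 ratio of ALDH+ over ALDH- cells (y axis) of the measured genes within 100 kb of the PSMB9 probe (left) and of the PSME1 probe (right), by distance in kb (x axis). Points are the mean of both arrays, vertical lines join the values of both arrays, and proteasome genes are red. PSMB8, TAP1 and PSMB9 are together above 0.5, whereas PSME1 and PSME2 lie 6.14 kb apart with means of 0.34 and -0.029.

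The upstream sequences of these genes are shown because PSMB9 and TAP1 start back to back, with 487 bases between their starts on opposite strands, and because PSMB8, PSMB10 and TAP1 carry the letters of an interferon-stimulated response element (ISRE), which is a pair of GAAA with any 2 bases between them. The sequences are from RefSeq (GRCh38.p14), 250 bases each, written along the gene's strand. PSMB9 is chr6:32853942-32854191 on the plus strand, TAP1 chr6:32853705-32853954 (the start at higher coordinates of its 2), PSMB8 chr6:32844042-32844291 and PSMB10 chr16:67936851-67937100, all 3 on the minus strand. The PSMB8 stretch belongs to the start at lower coordinates of its 2 listed starts and runs from base -244 to base 6, counting the start as 1, so that it includes the match. The other stretches end at base -1. Capitals mark ISRE matches on either strand.
PSMB9: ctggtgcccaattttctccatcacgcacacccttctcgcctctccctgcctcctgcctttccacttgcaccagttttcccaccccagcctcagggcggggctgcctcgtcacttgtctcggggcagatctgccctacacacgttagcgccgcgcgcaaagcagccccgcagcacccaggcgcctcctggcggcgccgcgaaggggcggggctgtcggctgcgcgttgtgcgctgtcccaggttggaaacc
TAP1: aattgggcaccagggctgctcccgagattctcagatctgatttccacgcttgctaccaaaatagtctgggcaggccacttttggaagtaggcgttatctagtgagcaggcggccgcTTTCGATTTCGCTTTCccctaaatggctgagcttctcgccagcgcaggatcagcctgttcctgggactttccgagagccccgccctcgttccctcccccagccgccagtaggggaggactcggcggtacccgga
PSMB8: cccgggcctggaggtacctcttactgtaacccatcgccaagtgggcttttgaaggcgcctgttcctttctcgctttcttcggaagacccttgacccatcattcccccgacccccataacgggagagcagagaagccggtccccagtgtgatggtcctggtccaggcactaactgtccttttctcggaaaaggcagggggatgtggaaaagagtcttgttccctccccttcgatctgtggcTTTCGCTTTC
PSMB10: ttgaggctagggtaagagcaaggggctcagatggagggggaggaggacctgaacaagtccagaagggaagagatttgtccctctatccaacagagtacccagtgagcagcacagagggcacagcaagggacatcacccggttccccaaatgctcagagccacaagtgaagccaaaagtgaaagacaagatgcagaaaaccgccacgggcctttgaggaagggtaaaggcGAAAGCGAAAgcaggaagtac

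The match lay at bases -4 to 6 of PSMB8 and at bases -21 to -12 of PSMB10. TAP1 had a pair of overlapping matches, at bases -134 to -125 and at bases -128 to -119. PSMB9 had no ISRE match in its window of 300 bases (250 before the start and 50 after). That window stops short of the TAP1 matches, which lie in the 487 bases between the starts of both genes. Over all proteasome genes with a listed window, the ISRE letters were found in 7 of 51 windows (13.7%), against 3.57% of all 35116 promoter windows. The genes with an ISRE match were PSMA4, PSMB4, PSMB8, PSMB10, PSME1, PSME2 and PSMG4, and their mean log2 ratios ran from -0.21 (PSMA4) to 0.69 (PSMB8). The match thus stood both in members that were higher on both arrays and in members that were lower on both. The letters TGACNNNGC of the antioxidant response element, through which NRF factors act on proteasome genes, were in 15 of 51 windows (29.4%), against 13.3% of all windows. CCAAT was in 39.2% of the members' windows and 34.6% of all windows. The letters TTCNNNGAA, also searched, were in 15.7% of the members' windows and 7.66% of all windows. These counts were of letters on both strands. They describe sequence only, and some of these motifs can overlap.

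The class I pathway that uses the peptides of the immunoproteasome was read through a list of 14 companion genes. Of its 13 measured genes, 10 were higher on both arrays (33.7% of all measured genes were), 1 was lower on both, and the median log2 ratio was 0.34, against -0.0023 over all measured genes (0.65 against 0.073 under median centring). TAP1 and B2M, the light chain of class I molecules, were past 1.5-fold. B2M had signals of 19662 against 13386 and of 20372 against 12525, with a mean log2 ratio of 0.63 ± 0.10. NLRC5, a regulator of class I genes, had a mean of -0.12 ± 0.25, and IRF1, a driver of PSMB9, was not well above background. Of 14 interferon-stimulated genes, 6 were measured, 3 of them were higher on both arrays, and their median was 0.071. IFIT1, IFIT3, MX1, OAS1, GBP1, IFI27, IFI44L and CXCL10 were not well above background.

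Blood cells also express immunoproteasomes, so markers of other cells were read. Both populations came from a cultured line and not from tissue, so a marker's signal does not by itself show another cell type. Among the leukocyte markers, CD3E, MS4A1, ITGAM and NKG7 were not well above background, and PTPRC, the pan-leukocyte antigen, had log2 ratios of -0.12 and 0.19 with a mean of 0.036 ± 0.22. The monocyte marker CD14 was higher in ALDH+ cells on both arrays, with 0.32 and 0.58 and a mean of 0.45 ± 0.18, as was TYROBP with 0.014 and 0.34 and a mean of 0.18 ± 0.23. CD68, a macrophage marker, had -0.19 and 0.038. The summed signal of the 4 measured leukocyte markers was 624 and 697 in ALDH+ cells and 596 and 551 in ALDH- cells. Among fibroblast and endothelial markers, 1 of 8 was measured (CDH5, 125 in both ALDH+ channels and 108 and 111 in ALDH- cells). All 9 epithelial and clear cell markers were measured, with summed signals of 167834 and 170927 in ALDH+ and 174929 and 181802 in ALDH- cells, and PAX8 among them was lower in ALDH+ cells (log2 ratios of -0.83 and -0.64). The part of these markers in the immunoproteasome ratios was not tested.

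The core particle, without the inducible subunits, had a median log2 ratio of -0.048 over its 14 measured genes, of which 3 were higher and 7 lower on both arrays (33.7% and 36.1% of all measured genes). In the alpha ring, whose subunits gate the barrel, PSMA7 was the highest. Its signals were 10958 against 9258 and 9659 against 9269, with log2 ratios of 0.24 and 0.059 and a mean of 0.15 ± 0.13. PSMA4 was the lowest, with 3695 against 4342 and 3298 against 3738, log2 ratios of -0.23 and -0.18 and a mean of -0.21 ± 0.037. Of the 7 measured alpha subunits, PSMA1, PSMA3, PSMA4, PSMA5 and PSMA6 were lower on both arrays after loess, and PSMA2 changed sign. The median of the ring was -0.089.

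In the constitutive beta ring the lowest means were those of PSMB1 and PSMB3, which have no catalytic site. PSMB1 had signals of 34440 against 43731 and of 33987 against 42679, which gave log2 ratios of -0.34 and -0.33. Its mean of -0.34 ± 0.011 (1.26-fold lower in ALDH+ cells) was the lowest of all members by the probe used and nearly the same on both arrays. However, the other PSMB1 probe had a mean of 0.017, and under median centring PSMB1 had 1.09 and -0.89 with a mean of 0.10. PSMB3 averaged -0.29 ± 0.33, from -0.52 and -0.056, so its size rested on the array that carried ALDH+ cells in Cy5. PSMB2 and PSMB4 changed sign between the arrays, with means of 0.011 and -0.032. The median of the ring was -0.032.

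The regulatory particle had a median log2 ratio of -0.041 over its 17 genes, of which 2 were higher and 7 lower on both arrays (33.7% and 36.1% of all measured genes were). The 6 ATPases, which form the ring that unfolds substrates, ran from PSMC1 to PSMC3 with a median of -0.0056. PSMC3 had signals of 2764 against 2457 and 2588 against 2260, with log2 ratios of 0.17 and 0.20. Its mean of 0.18 ± 0.018 was the highest of the particle. PSMC1 had log2 ratios of -0.20 and -0.13, with a mean of -0.17 ± 0.050, but its other measured probe had 0.041 and 0.048. PSMC5 showed the widest disagreement of the ring, with 0.27 and -0.21.

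Among the 11 non-ATPase subunits, 6 were lower on both arrays after loess (36.1% of all measured genes were). Only PSMD13 was higher on both (mean 0.084 ± 0.045), as were 33.7% of all measured genes. PSMD1, a large scaffold subunit of the base, had signals of 7334 against 9619 and 7243 against 8804, with log2 ratios of -0.39 and -0.28 and a mean of -0.34 ± 0.078. PSMD2, the other large scaffold, had 16971 against 20172 and 16730 against 20439, with a mean of -0.27 ± 0.028. Under median centring the means of PSMD1 and PSMD2 were -0.049 and 0.096. PSMD12 of the lid followed with -0.27 ± 0.074. These 3 genes were low on both arrays after loess by the probe used, while the ubiquitin receptor PSMD4 (-0.13 ± 0.057) and the deubiquitinase PSMD14 (-0.022 ± 0.010) were nearer to equality. PSMD6, PSMD7, PSMD8 and PSMD11 had opposite signs on the arrays.

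The activators diverged. PSME1, a subunit of the interferon-inducible cap of the immunoproteasome, had signals of 704 against 577 and 677 against 512, with log2 ratios of 0.29 and 0.40. Its mean of 0.34 ± 0.083 (1.27-fold) was the highest of any member after PSMB8 and PSMB9 under loess, while under median centring PSMD9 (0.57) and PSMA7 (0.46) were above it (0.43). PSME2, its partner in the same ring and its neighbor on chromosome 14, had 12398 against 12840 and 12577 against 12635, with a mean of -0.029 ± 0.031. The partners therefore did not show the same ratio. PSME3 of the nuclear cap had 0.29 and -0.035. PSME4, another nuclear activator, had signals of 331 against 437 and 347 against 385, with a mean of -0.27 ± 0.17. Its other measured probe had log2 ratios of -0.27 and -0.62 with a mean of -0.45. With the mean over all measured probes of a gene, PSME4 was the lowest member, at -0.36. PSMF1, the inhibitor, had a mean of -0.070 ± 0.062 by its brightest probe.

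Assembly chaperones held some of the higher values. PSMD9, which helps to build the regulatory particle, had signals of 6389 against 5227 and 6156 against 4860, with log2 ratios of 0.29 and 0.34. Its mean of 0.32 ± 0.036 (1.24-fold) lay just inside 1.25-fold. PSMG2, which with PSMG1 forms a chaperone of the alpha ring, had log2 ratios of 0.30 and 0.20 with a mean of 0.25 ± 0.071, while PSMG1 itself had -0.043 and -0.0077. POMP, which completes the core and carries no PSM symbol, had log2 ratios of 0.37 and 0.21 with a mean of 0.29 ± 0.12. PSMG4 was the lowest chaperone, at -0.0030 and -0.40 with a mean of -0.20 ± 0.28, so this value came from the array that carried ALDH+ cells in Cy3. PSMD10, known as the oncoprotein gankyrin, had 0.51 and -0.048. Of the 7 chaperones, 2 were higher and 3 lower on both arrays (33.7% and 36.1% of all measured genes were), with a median of -0.025.

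**Figure D4:**
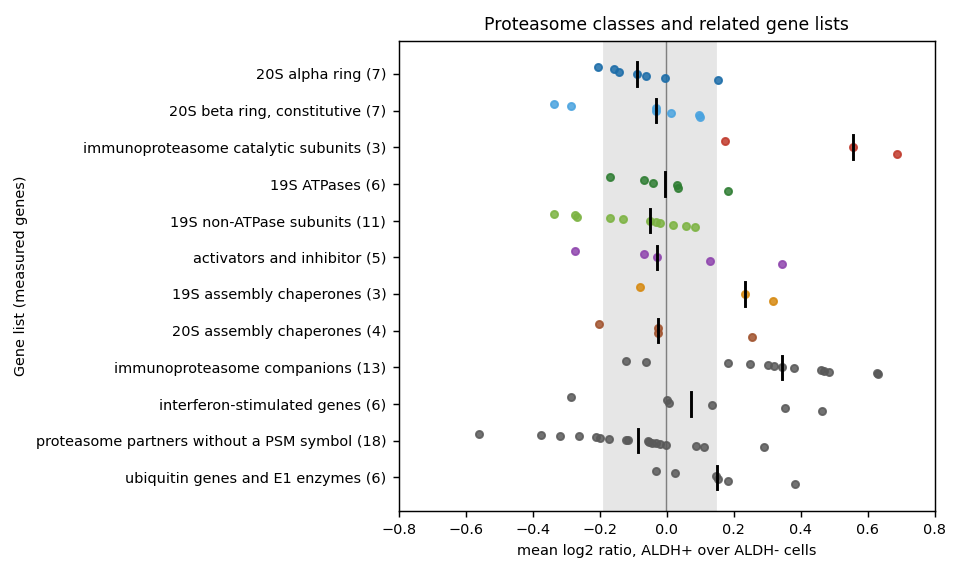
Mean log2 ratio of ALDH+ over ALDH- cells (x axis) of each measured gene, by proteasome class in color and by related gene list in gray, with the number measured in brackets (y axis). Black bars are medians, the gray band holds the middle of all 13718 measured genes from the 25th to the 75th percentile, and the gray line is their median. The immunoproteasome (0.55) and its companions (0.34) have the highest medians shown, and the medians of the core and regulatory classes sit inside the band, all after loess.

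Partners of the proteasome outside the family were read in the same way, after loess. Of the 18 measured of 19 listed, 3 were higher and 11 lower on both arrays (33.7% and 36.1% of all measured genes were), with a median log2 ratio of -0.087. NFE2L1, the transcription factor that raises proteasome genes when activity falls, had signals of 9473 against 13318 and 8517 against 13170, with log2 ratios of -0.49 and -0.63 and a mean of -0.56 ± 0.097. The 6 ubiquitin genes and E1 enzymes had a median of 0.15, with 2 higher and 1 lower on both arrays.

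Probes of the same transcript did not always give the same ratio. Among the 8 members with several measured probes of 1 transcript, the probe nearest the 3′ end gave the lower ratio in 7. It did so in 59.8% of the 1927 genes with such probes, so this order was common on the array. The 3′ probe was lower on both arrays in 5 members (62.5%, against 36.6% of those genes). The median difference, 3′ minus 5′, was -0.25 over these members and -0.054 over all such genes. For PSMB1 the probe starting at base 447 had log2 ratios of -0.0010 and 0.035, and the one at base 808 had -0.34 and -0.33. For PSMD1 the probe at base 2261 had a mean of -0.0016 and that at base 3153 of -0.34. For PSMD2 the means were 0.012 at base 1586 and -0.27 at base 2861. For PSMC1 they were 0.044 at base 1311 and -0.17 at base 1448. The low values of PSMB1, PSMC1, PSMD1 and PSMD2 given above were thus those of their 3′ probe, which was the brighter one, and their other probe was between -0.0016 and 0.044.

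**Figure D5:**
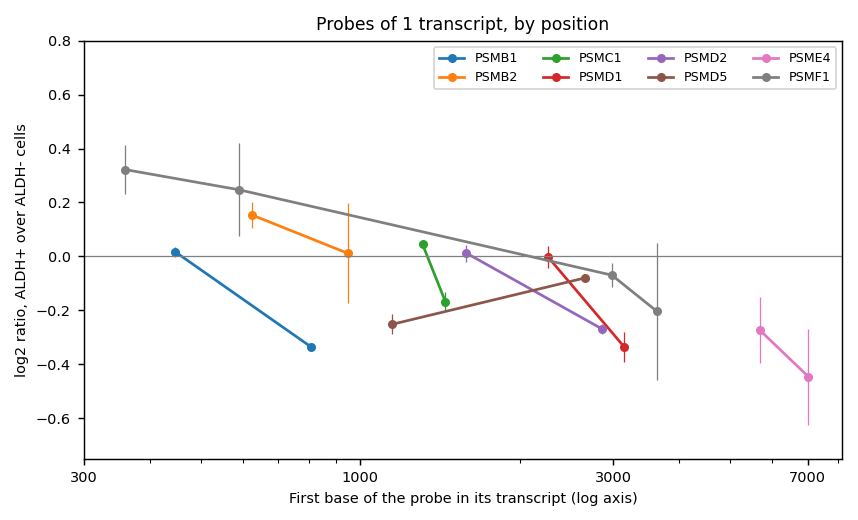
Log2 ratio of ALDH+ over ALDH- cells (y axis) against the first base of the probe in its transcript (x axis, log scale) for the 8 members with several measured probes of 1 transcript. Points are means of both arrays, vertical lines join both arrays, and colored lines join probes of a gene. The line falls toward the 3′ end for every gene except PSMD5.

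PSMF1 had the widest spread, with 4 probes of 1 transcript. Their means were 0.32 at base 360, 0.25 at base 590, -0.070 at base 2986 and -0.20 at base 3635, a fall of 0.53 from the first to the last. PSMD5 went the other way, from -0.25 at base 1149 to -0.080 at base 2658. Probes of different transcripts also parted in some cases. PSMA1 had -0.063 by its bright probe and -0.44 ± 0.41 by a dim one of another transcript. A probe of another PSMD10 transcript, outside the naming rule, had -0.44 and -0.75, against a mean of 0.23 for the PSMD10 probe used here. The second PSMD10 probe inside the rule, of a further transcript, lay near the one used, with 0.31 and 0.034 and a mean of 0.17. PSMB8 and PSMB9 were each read by 1 probe, so no such comparison could be made for them. The probe of PSMB8 started at base 875 of its transcript and that of PSMB9 at base 132. PSME1, at base 192, and PSMB6, at base 565, also had 1 probe each. The ratio of PSMB9 and its difference from PSMB6 thus rest on probes at unlike positions. The share of the probe position in any of these ratios was not tested.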

How the data were processed

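ALDH+ and ALDH- cells of RMG1 were compared on 2 two-color arrays (dye swap, 1 sort of each population). RMG1 is the line in the labels and results, although the methods give AMOC2. The authors deposited the intensity of each spot and of its local background, with no normalization, together with the scanner software's log10 ratio after its own background and dye correction. File headers give Feature Extraction 10.7.3.1, the labels 8.5.1.1. A further deposited table joins the log10 ratio of both arrays with 4 signal columns, which were not used.

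In R 4.3.3 with limma 3.58.1, signals were corrected with normexp (offset 50) and loess within each array. Control spots were left out, as were outlier spots (531 and 519). Python 3.11.15, numpy 2.4.6 and pandas 2.3.3 did the rest. A probe was measured when, in at least 1 population, over 50% of its spots passed the scanner's well-above-background flag on each array. A gene was read by its brightest measured probe. Each array had 21697 to 27979 gene spots per channel well above background. RefSeq named 25422 probes. Steps were tested on simulated data. The members, lists and motifs were chosen with earlier results of these data known. Any member could be named. Catalytic subunits, the extremes of each class, members past 1.5-fold, those near background and those with measured probes over 0.3 apart were always given, as were TAP1, TAP2, POMP, NFE2L1 and listed genes past 1.5-fold. Other members and genes given with values, such as HLA-DMB and NLRC5, were chosen after their values were seen. Some genes of the lists are not reported by name here. Alternatives were plain subtraction, no background correction, background from negative controls, an offset of 10, median centring, the software's and the joined table's ratios, other filters, other probe and outlier rules, and each array alone.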

Additional observations from a re-analysis of the deposited data

How the results depend on the processing

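Median centring gave medians of 0.21 for all members, 0.22 for the core particle and 0.16 for the regulatory particle. It gave 0.26 for the activators and inhibitor and 0.18 for the assembly chaperones. The differences were 0.10 for PSMB10 minus PSMB7 and 0.27 for PSMB9 minus PSMB6. In this setting 2 members were past 1.5-fold higher, and 1 member was higher and 0 lower on both arrays. The share of all measured genes with the same sign was not counted there, and their medians had opposite signs on the arrays (0.56 and -0.43). The activators and inhibitor had a median of -0.0072 with an offset of 10 and of 0.074 with the mean over all measured probes. Members past 1.5-fold higher numbered 2 (PSMB8 and PSMB9) in 5 settings with both arrays. These were median centring (3.7% of all measured genes called), an offset of 10 (2.3%), background from negative controls (1.7%) and the ratios of the software and of the joined table (4.1% each). In the remaining settings with both arrays the count was 1, with 0.76% to 1.6% of all genes called. With 1 array alone this count was 0 to 2, with 1.8% and 2.1% of all measured genes called. The medians then ranged from -0.069 to -0.012 for all members, from -0.11 to 0.0092 for the core and from -0.090 to -0.029 for the regulatory particle. They ranged from -0.051 to -0.026 for the activators and inhibitor and from -0.048 to 0.091 for the chaperones. The software's ratio gave PSMB9 0.73, its highest value with both arrays. In no setting was a member past 1.5-fold lower, where 2.3% to 9.2% of all measured genes were called. Of 208 values of 16 named members under the alternatives, 25 moved beyond the SD between both arrays. This count does not measure stability, because some of the values could not move. A value from 1 array alone always lies within that SD of the mean of both. With outlier spots kept, or with the other filters, the values of these members were unchanged. The joined table repeated the software's values for these members. Under median centring all 16 moved except PSMB8, PSMB9, PSME4 and PSMG4. No paired analysis was possible because only 1 pair of extracts was measured. With 1 sort, the spread between sorts is unknown, and the number of arrays limits the precision.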
